A study of Homo sapiens with 24 samples.

Results

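The glycolysis and hypoxia genes described here are 45 genes of glucose uptake, glycolysis, lactate handling and the response to low oxygen, out of 19932 genes with a usable line in the deposited table. The members are a list of gene symbols, taken with earlier results of these data known. Of the 45, 44 were found under their own symbol and ERO1L under its current symbol ERO1A. By role, 2 take up glucose, 11 act in upper glycolysis, 6 act in lower glycolysis, 6 handle pyruvate and lactate, 4 belong to oxygen sensing and 16 respond to hypoxia.

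The cells are HCC827, a line from a human lung adenocarcinoma that is driven by mutant EGFR and is widely used to study EGFR inhibitors such as osimertinib. Cells labelled Parental, DTP (the drug-tolerant persister state) and Resistant (acquired resistance) were each measured with EV, the empty vector, and with OC, overexpression of the circular RNA cATF6. The genotype label is WT for EV and cATF6 overexpression for OC, and no drug is named for these 6 groups. Each group has 3 RNA libraries. Nothing in the labels says that replicates came from separate cultures, so p-values measure only the spread between these libraries, which may be technical.

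In glycolysis, glucose enters through SLC2A transporters, is trapped by hexokinase, split by aldolase, and ends as pyruvate. Lactate dehydrogenase turns pyruvate into lactate, which SLC16A transporters move across the membrane, whereas PDK kinases restrain its entry into mitochondria by inhibiting pyruvate dehydrogenase. Oxygen is sensed through EGLN prolyl hydroxylases, which mark the factors HIF1A and EPAS1 (HIF-2 alpha) for degradation. When oxygen is low these factors accumulate as protein and raise the transcription of most glycolytic genes, of EGLN3 itself and of genes such as CA9 and VEGFA. In EGFR-mutant lung cancer cells, EGFR signalling is known to sustain glucose uptake and glycolysis.

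Values are scaled counts, that is, recovered read counts put on a common library size. Libraries held 30075330 to 45068508 counts. ATF6, the gene that the name of the circle refers to, had 2881, 2959 and 2992 in Parental EV, 3282, 3286 and 3323 in DTP EV and 2322, 2069 and 1937 in Resistant EV. With OC it lay at 18314, 17745 and 18365 in Parental, 18752, 22001 and 22092 in DTP and 31462, 33316 and 32530.2 in Resistant cells. Every OC library was thus above every EV library. A count per gene does not separate the circular from the linear transcript, so it does not by itself check the circular RNA. Replicates differed beyond counting error in all groups. DTP EV 1 stood apart from DTP EV 2 and 3, with a chi-square per degree of freedom of 56.8 and 56.0, against 17.3 between the latter and 5.38 to 17.2 in the other groups. Counts of calls that rest on DTP EV, and the calls that change, are therefore also given without that library. For fits that leave out libraries or groups, no share over all genes is given. Their counts are set only against the members' counts from all 18 libraries. Leaving out DTP EV 1 moved the members' log2 changes against Parental EV by a median of 0.09 and, CA9 aside, by at most 0.43 (SLC2A3). The Resistant libraries carry another library series name than the Parental and DTP libraries, so the Resistant state and the library series cannot be told apart.

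Epithelial markers (12 tested) were high in every group, with a summed scaled count of 331982 in Parental EV, 317499.8 in DTP EV and 971043 in Resistant EV. The lung epithelial markers summed to 9776 in Parental EV and 12996 in DTP EV, but to 97.4 in Resistant EV, where SLC34A2 was at 0 and NKX2-1 and NAPSA fell from 2550.1 and 6040.4 to 24.9 and 23.1. Among markers of other cell types, PTPRC and CD3E stayed under 11 in every group mean, while in Resistant EV PDGFRB rose to 11259 from 2.06 in Parental EV and CD68 from 5406 to 44846. In that comparison 1 of 8 fibroblast markers tested was called higher and 7 were not called. Of 3 leukocyte markers 2 were higher, and of 4 endothelial markers 2 were higher and 1 lower. Of 6 lung epithelial markers 5 were lower and 1 higher, and of 12 epithelial markers 2 were lower and 9 higher. Over all genes 43.6% were lower and 38.6% higher. In DTP EV against Parental EV, 1 lung epithelial marker was higher, 1 lower and 4 not called, with a median log2 change of -0.95. Their sum was 9748 in DTP EV 1, 15511 in DTP EV 2 and 13729 in DTP EV 3. Of the epithelial markers 3 were higher and 6 lower in DTP EV, where 28.7% of all genes were higher and 28.1% lower. The 9 proliferation markers summed to 92765 to 93966 in Parental EV, 19083 to 33951 in DTP EV, 41070.1 to 47714 in DTP OC, 9264 to 10249 in Resistant EV and 3578 to 3703 in Resistant OC. These values move with the groups compared below, and their part in the members' results was not tested.

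The sequence that hypoxia-inducible factors are known to recognise is short, and the 250 bases before the annotated start of each member were searched for its core, ACGTG or GCGTG, on both strands (CACGTG holds ACGTG on both strands). RefSeq promoters on build GRCh38.p14 were found for 40 members, and 34 of them (85.0%) held the motif at 1 or more starts, against 47.4% of 27305 genes. A gene with more starts has more chances of a match. Counted by promoter, 63.4% of the 71 member promoters held the motif, against 43.2% of all promoters. VEGFA, BNIP3L, SLC2A3, NDRG1 and SLC16A1 have no entry, and no match was found for EGLN3, LDHB, SLC2A1, PKM, PGAM1 and P4HA2. The form ACGTG was held by 62.5% of the members and by 21.7% of all genes (by promoter, 40.8% and 18.5%). Member promoters also had a median of 68.4% G or C bases and 24 CG pairs, against 58.0% and 11 over all 35116 promoters. The part of base composition in the motif share was not tested. The promoters below belong to 5 members whose levels rose with OC in Resistant cells and to LDHB, whose level was not called there. They were chosen after the values were seen. Members without a match also rose there, namely EGLN3, SLC2A1, PKM, PGAM1 and P4HA2. Members with a match but no call there were HIF1A, INSIG2, MXI1, PDK3, PFKFB3 and ANKRD37. EPAS1 held a match and was lower there. A link between motif and change was not tested. Capitals mark the motif, and the sequences run 5′ to 3′ on the gene's strand.
PDK1 (chr2:172555840-172556089, plus strand): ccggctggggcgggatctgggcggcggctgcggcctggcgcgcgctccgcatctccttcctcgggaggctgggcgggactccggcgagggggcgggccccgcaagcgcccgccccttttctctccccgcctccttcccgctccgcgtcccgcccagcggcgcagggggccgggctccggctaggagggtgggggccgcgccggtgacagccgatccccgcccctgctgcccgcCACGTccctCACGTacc
P4HA1 (chr10:73096867-73097116, minus strand): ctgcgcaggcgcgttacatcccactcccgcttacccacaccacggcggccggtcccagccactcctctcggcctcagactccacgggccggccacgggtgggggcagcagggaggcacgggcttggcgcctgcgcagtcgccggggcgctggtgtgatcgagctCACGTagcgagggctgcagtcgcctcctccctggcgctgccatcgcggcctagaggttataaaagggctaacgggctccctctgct
ALDOC (chr17:28576896-28577145, minus strand): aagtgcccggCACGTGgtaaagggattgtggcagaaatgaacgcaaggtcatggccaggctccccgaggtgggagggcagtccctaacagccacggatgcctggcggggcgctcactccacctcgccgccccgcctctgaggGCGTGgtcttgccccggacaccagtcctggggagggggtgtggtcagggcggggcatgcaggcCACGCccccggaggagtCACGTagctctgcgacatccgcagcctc
CA9 (chr9:35673678-35673927, plus strand): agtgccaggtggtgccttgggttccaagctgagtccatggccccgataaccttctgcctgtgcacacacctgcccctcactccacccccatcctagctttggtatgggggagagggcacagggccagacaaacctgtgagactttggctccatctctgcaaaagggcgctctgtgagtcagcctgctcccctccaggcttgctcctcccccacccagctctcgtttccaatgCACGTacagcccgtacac
ENO2 (chr12:6914330-6914579, plus strand): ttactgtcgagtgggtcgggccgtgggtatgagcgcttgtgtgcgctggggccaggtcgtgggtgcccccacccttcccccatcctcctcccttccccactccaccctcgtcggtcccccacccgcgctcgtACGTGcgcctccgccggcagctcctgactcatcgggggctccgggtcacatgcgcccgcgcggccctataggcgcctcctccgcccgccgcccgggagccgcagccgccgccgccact
LDHB (chr12:21657843-21658092, minus strand): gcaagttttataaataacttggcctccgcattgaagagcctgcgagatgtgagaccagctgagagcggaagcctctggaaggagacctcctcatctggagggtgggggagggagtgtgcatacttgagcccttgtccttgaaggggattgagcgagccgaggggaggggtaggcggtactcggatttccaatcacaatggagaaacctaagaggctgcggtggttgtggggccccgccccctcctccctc
PDK1 carries 2 copies close to its start and ALDOC carries 4 stretches, the first of which is a CACGTG. The promoters of P4HA1, CA9 and ENO2 carry 1 copy each, and that of LDHB carries none in this window. A match is a description of the sequence and not a binding site. PDK1 has 2 annotated starts, and the start with more matches is shown.

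**Figure D1:**
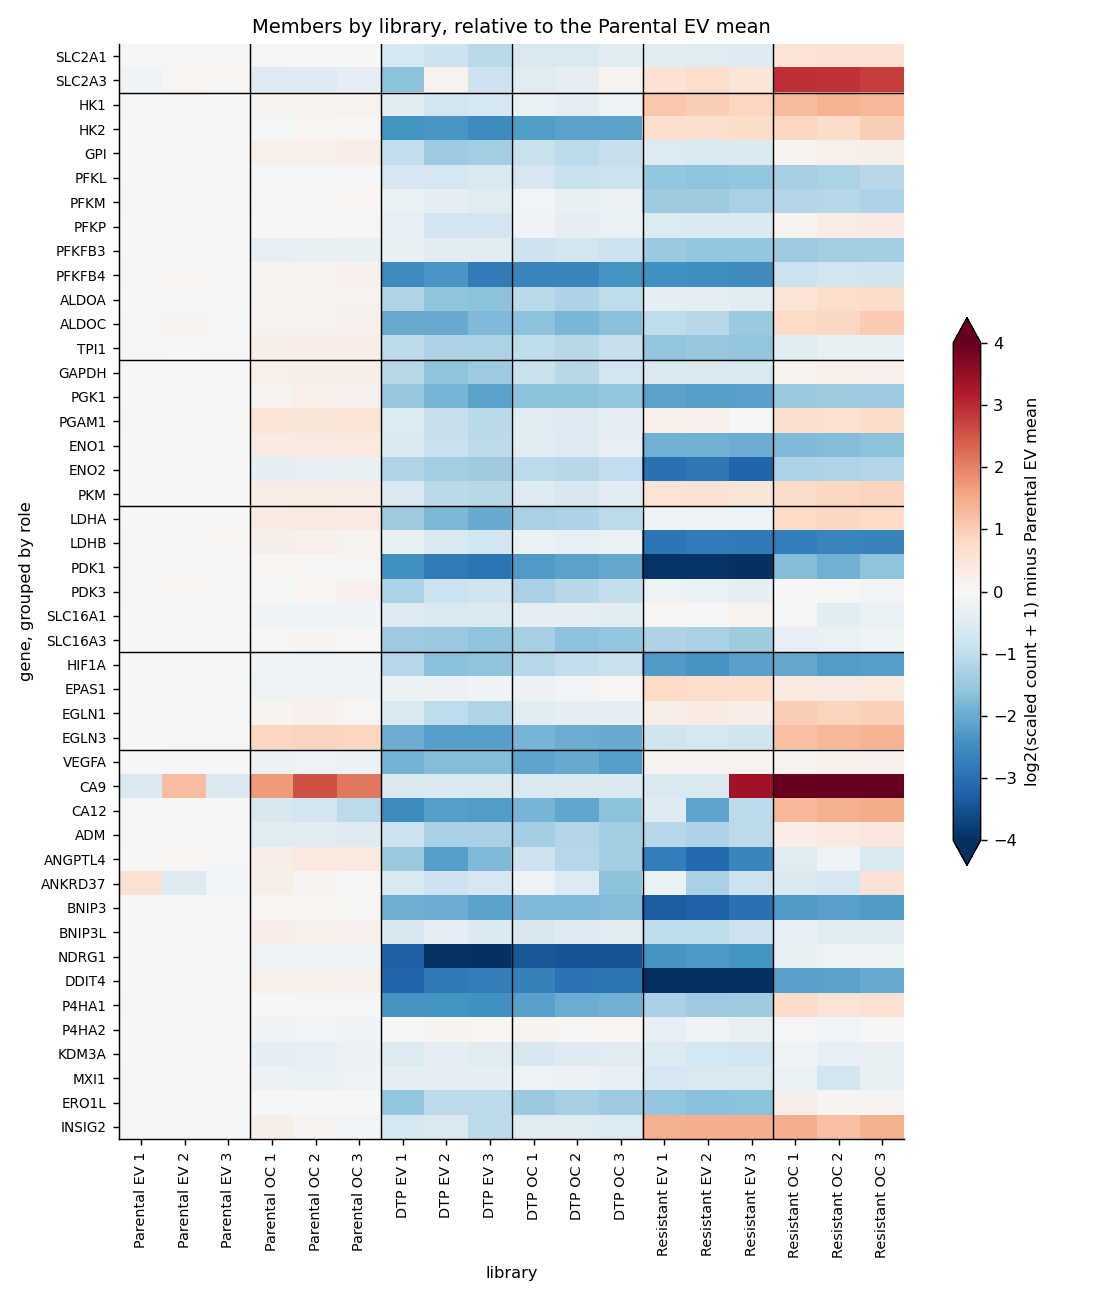
Level of each of the 45 members in each of the 18 libraries as log2(scaled count + 1) minus the mean of the 3 Parental EV libraries, with colours capped at 4 on either side and horizontal lines between roles (glucose uptake, upper glycolysis, lower glycolysis, pyruvate and lactate, oxygen sensing, hypoxia-responsive). DTP libraries are below Parental EV for nearly all members, and Resistant OC libraries are above Resistant EV libraries for most. CA9 is near 0 counts outside Resistant OC, so its colours there rest on a few reads.

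The first comparison asked how the members differ between persisters and parental cells with empty vector. Of the 45 members, 42 were lower in DTP EV than in Parental EV at an adjusted p under 0.05 (limma), and none was higher, also at an unadjusted p under 0.05. Over all 15211 genes tested, 28.1% were lower and 28.7% were higher. The members' median log2 change was -1.15, with a median of 0.00 over all genes, and 23 members fell at least 2-fold, as did 8.22% of all genes. The share of all gene counts that fell on the members was 2.61 ± 0.0201% in Parental EV and 1.14 ± 0.174% in DTP EV (SD, n = 3), and 1.02% and 1.06% in DTP EV 2 and 3. In bulk RNA, fewer cells with a transcript and less of it in each cell cannot be told apart. Without DTP EV 1, 41 members were lower and none was higher, and SLC2A3 lost its call. NDRG1 then fell 15.7-fold, PDK1 7.33-fold, DDIT4 6.93-fold and HIF1A 3.11-fold, against the values with all libraries below.

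Of the 16 hypoxia-responsive genes 13 were lower, among them NDRG1 and DDIT4, which fell the furthest of the 45. Where values are given as from and to, those of Parental EV come first. NDRG1, a stress-responsive gene used as a marker of hypoxia, had 13801, 13407 and 13869.9 scaled counts in Parental EV and 1436, 874 and 870.4 in DTP EV. All DTP values lay far under the Parental ones, and the fall was 13.3-fold (log2 -3.73, SE 0.13; limma adjusted p = 6.43e-13). DDIT4, an inhibitor of mTORC1 signalling, went from 26274, 26170.3 and 26382 to 2909, 3737 and 3851, a 7.57-fold fall (log2 -2.92, SE 0.09). P4HA1, a catalytic subunit of collagen prolyl hydroxylase, fell 5.23-fold and the mitophagy receptor BNIP3 4.05-fold. The angiogenic factor VEGFA had 12547, 12377 and 12124 in Parental EV and 3315, 3683 and 3706 in DTP EV, with no overlap and a 3.46-fold fall. ANGPTL4, an inhibitor of lipoprotein lipase, went from 280.2, 297 and 262 to 99.0, 60.5 and 81.3 and fell 3.52-fold. CA12, a carbonic anhydrase, fell 4.98-fold from a low level of 61.6. ERO1L, an oxidase of the endoplasmic reticulum, fell 2.33-fold, ADM 2.23-fold, the mitophagy receptor BNIP3L 1.44-fold and INSIG2 1.71-fold.

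The 3 members not called were P4HA2, CA9 and ANKRD37. P4HA2, the other catalytic subunit of collagen prolyl hydroxylase, had 1899.9 ± 44.5 in Parental EV and 1982 ± 84.9 in DTP EV (log2 0.06, SE 0.05; limma adjusted p = 0.35). ANKRD37 had 71.8, 32.6 and 43.8 in Parental EV and 30.7, 26.1 and 29.4 in DTP EV, with a wide spread in the former. CA9, the carbonic anhydrase most used as a hypoxia marker, had 3 raw counts in the 3 Parental EV libraries together and 0 in DTP EV, so no change could be detected at this depth. CA9 passed the filter on low counts only through Resistant OC.

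Both glucose transporters, all 11 upper glycolysis genes and all 6 lower glycolysis genes were lower in DTP EV. HK2, the inducible hexokinase, had 4094, 3972 and 4028 in Parental EV and 769, 801 and 699 in DTP EV, a 5.33-fold fall (log2 -2.41, SE 0.06; limma adjusted p = 2.6e-14). HK1, the widely expressed hexokinase, fell 1.56-fold. PFKFB4, which sets the level of the phosphofructokinase activator fructose 2,6-bisphosphate, went from 1657, 1791 and 1669 to 300.1, 337 and 243 and fell 5.85-fold, whereas its paralog PFKFB3 fell 1.32-fold. ALDOC, the brain-type aldolase, went from 824, 916 and 806 to 209, 208 and 248 and fell 3.82-fold, and ALDOA fell 2.80-fold. SLC2A1, the main glucose transporter of epithelial cancer cells, went from 9458, 9177 and 9281 to 5762, 5125 and 4399 and fell 1.84-fold. Of the other upper glycolysis genes, the isomerases GPI and TPI1 fell 2.43-fold and 2.26-fold, and the phosphofructokinase subunits PFKL, PFKM and PFKP fell 1.58-fold, 1.30-fold and 1.53-fold. In lower glycolysis the folds ran from 1.79 for ENO1, an enolase, to 3.58 for PGK1, the first enzyme there that makes ATP. GAPDH, often used as a reference gene, had 204989, 204912 and 207144 in Parental EV and 96144, 68012 and 74353 in DTP EV. Its highest value among the DTP libraries was in DTP EV 1, and all 3 lay under every Parental value.

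All 6 genes of pyruvate and lactate handling and all 4 genes of oxygen sensing were lower as well. PDK1, a kinase that inhibits pyruvate dehydrogenase, had 3897, 3799 and 3736 in Parental EV and 712, 543 and 497 in DTP EV, a 6.60-fold fall (log2 -2.72, SE 0.12; limma adjusted p = 1.81e-11). LDHA, the subunit of lactate dehydrogenase favoured in glycolytic cells, went from 64414, 65269 and 66917 to 24359, 18932 and 16315 and fell 3.34-fold, and the subunit LDHB fell 1.47-fold. SLC16A3, the lactate exporter MCT4, went from 8769, 8542 and 8619.6 to 3151, 3067 and 2831 and fell 2.87-fold. HIF1A had 36072, 36095 and 35425 in Parental EV and 16442, 11374 and 11676 in DTP EV, a 2.76-fold fall with DTP EV 1 the highest of its group. EPAS1 went from 7037, 7047 and 6712 to 5766, 5948 and 6141, a 1.16-fold fall (log2 -0.22, SE 0.05; limma adjusted p = 0.00133), the smallest of the 42. EGLN3, the hydroxylase that hypoxia induces, went from 1452, 1387 and 1493 to 365, 315 and 313 and fell 4.36-fold, with no overlap.

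**Figure D2:**
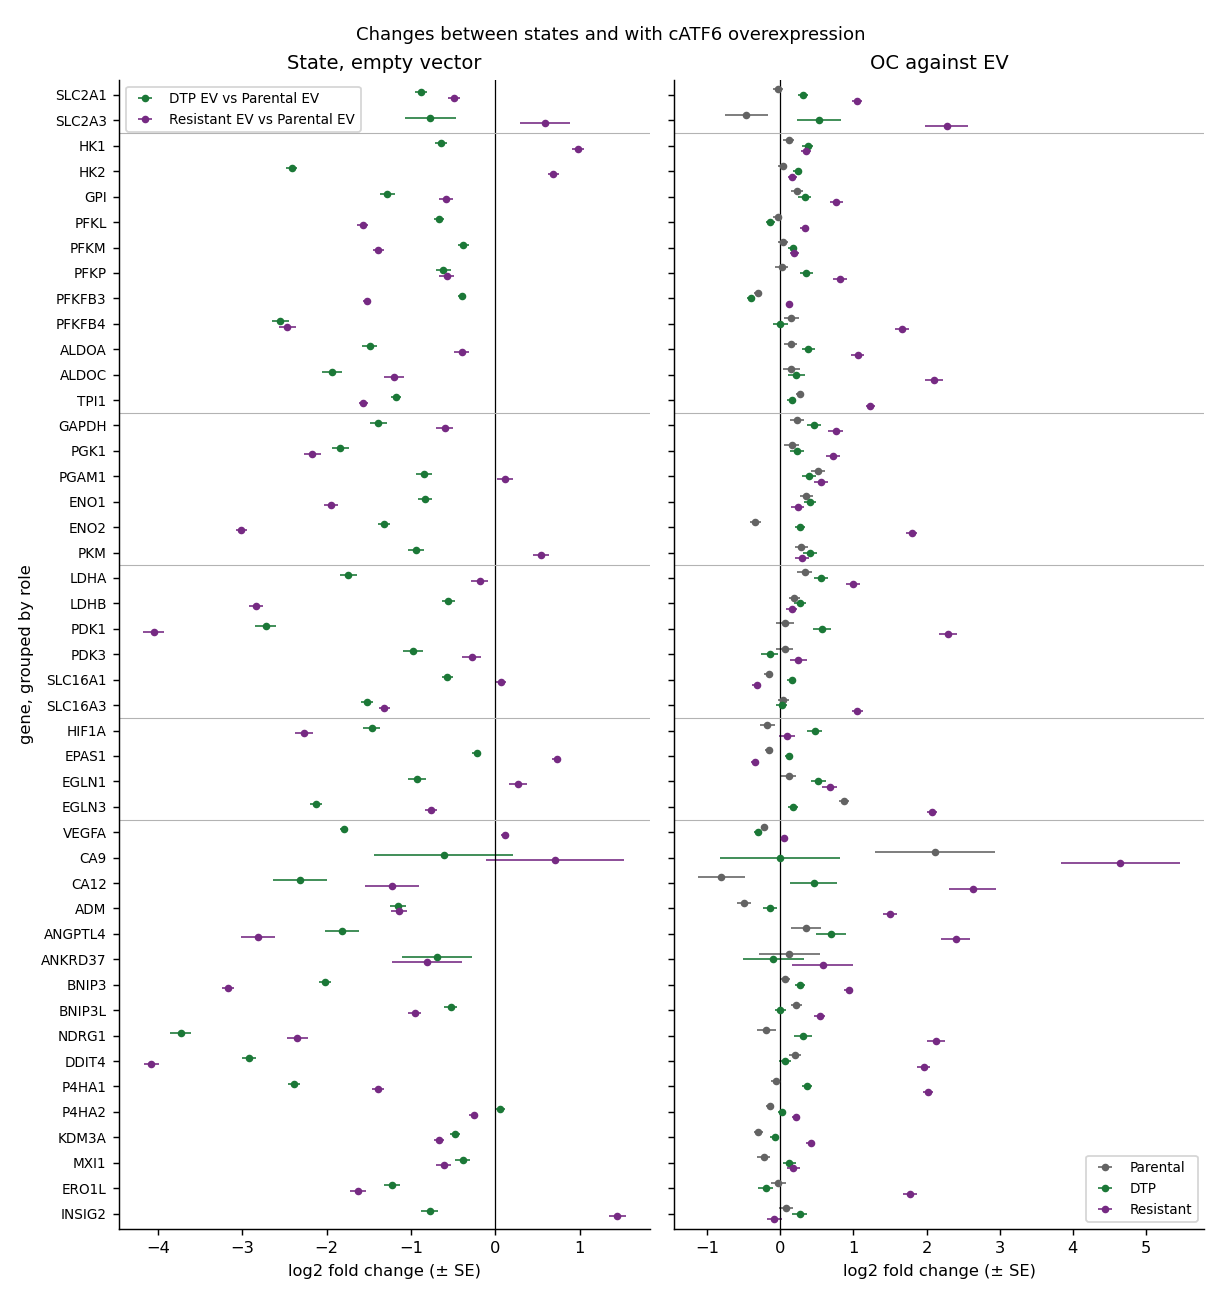
Log2 fold change of each member with its standard error from the fit of all 18 libraries (3 in each group), on the left for DTP EV and Resistant EV against Parental EV and on the right for OC against EV in Parental, DTP and Resistant cells. On the left, 42 of the green points lie below 0 with a call. On the right, 35 of the purple points (Resistant) lie above 0 with a call, against 5 of the grey points (Parental).

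The second comparison set Resistant EV against Parental EV. Here 32 members were lower and 7 were higher, in a comparison in which 43.6% of all genes were lower and 38.6% higher, so calls of either kind were common throughout. The median log2 change of the members was -0.81, against -0.10 over all genes, and 21 members fell at least 2-fold, with 26.3% of all genes doing so. The members took 1.29 ± 0.0152% of all counts in Resistant EV (SD, n = 3), against the Parental EV share given above. Library series and state coincide in this comparison.

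The widest falls were of DDIT4, PDK1, BNIP3, ENO2 and LDHB. DDIT4 had 1495, 1596 and 1579 in Resistant EV, a 16.9-fold fall from Parental EV (log2 -4.08, SE 0.09; limma adjusted p = 9.48e-17). PDK1 had 249, 249 and 194, a 16.6-fold fall (log2 -4.05, SE 0.12), and BNIP3 had 751, 798 and 941, a fall of 3.17 on the log2 scale. ENO2, the neuron-type enolase, went from 3659, 3773 and 3698 in Parental EV to 466, 508 and 411 and fell 8.05-fold, while ENO1 fell 3.86-fold. LDHB, the subunit favoured in oxidative tissues, went from 35453, 35893 and 38387 to 4962, 5296 and 5108 and fell 7.14-fold. For LDHA the values were 58259.9, 57235 and 57575, and its change was log2 -0.18, SE 0.10, with an adjusted p of 0.0968 (limma). LDHA was called lower under quantile normalization (log2 -0.80, adjusted p = 5.43e-07) and in a fit of both groups alone (log2 -0.17, adjusted p = 0.000202). NDRG1 had 2677, 2811 and 2583 and fell 5.09-fold, PFKFB4 had 314, 313 and 296 and fell 5.53-fold, and ANGPTL4 had 41.3, 31.8 and 45.1 and fell 7.02-fold. EGLN3 (831, 889.8 and 836) fell 1.69-fold, ALDOC (417, 392 and 302) 2.30-fold, SLC16A3 (3678, 3531 and 3241) 2.48-fold and SLC2A1 (6866, 6606 and 6465) 1.40-fold.

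The 7 members that were higher in Resistant EV were INSIG2, HK1, EPAS1, HK2, PKM, EGLN1 and VEGFA. INSIG2, which retains the SREBP activator SCAP in the endoplasmic reticulum, rose 2.73-fold from 1698, 1627 and 1609 to 4452, 4515 and 4503. HK1 had 8474, 7995 and 7325 and rose 1.97-fold, and HK2 had 6492, 6278 and 6761 and rose 1.61-fold. PKM, pyruvate kinase, rose 1.46-fold, but under quantile normalization its change was 0.04 on the log2 scale (limma adjusted p = 0.748). The factors HIF1A and EPAS1 moved in opposite directions: HIF1A had 7519, 7017 and 7900.5 and fell 4.80-fold, and EPAS1 had 11948, 11359 and 11125 and rose 1.66-fold (limma adjusted p = 2.56e-12 and 5.38e-10). EGLN1, the main oxygen-dependent hydroxylase of HIF, rose 1.21-fold. VEGFA had 13297, 13500.1 and 13461, a change of log2 0.12, SE 0.05 (limma adjusted p = 0.0294), but it was lower by 0.22 under quantile normalization (limma adjusted p = 0.000657), so that its direction depends on the scaling. The call was also lost without any of 4 of the 6 libraries (adjusted p = 0.0578 to 0.0891).

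**Figure D3:**
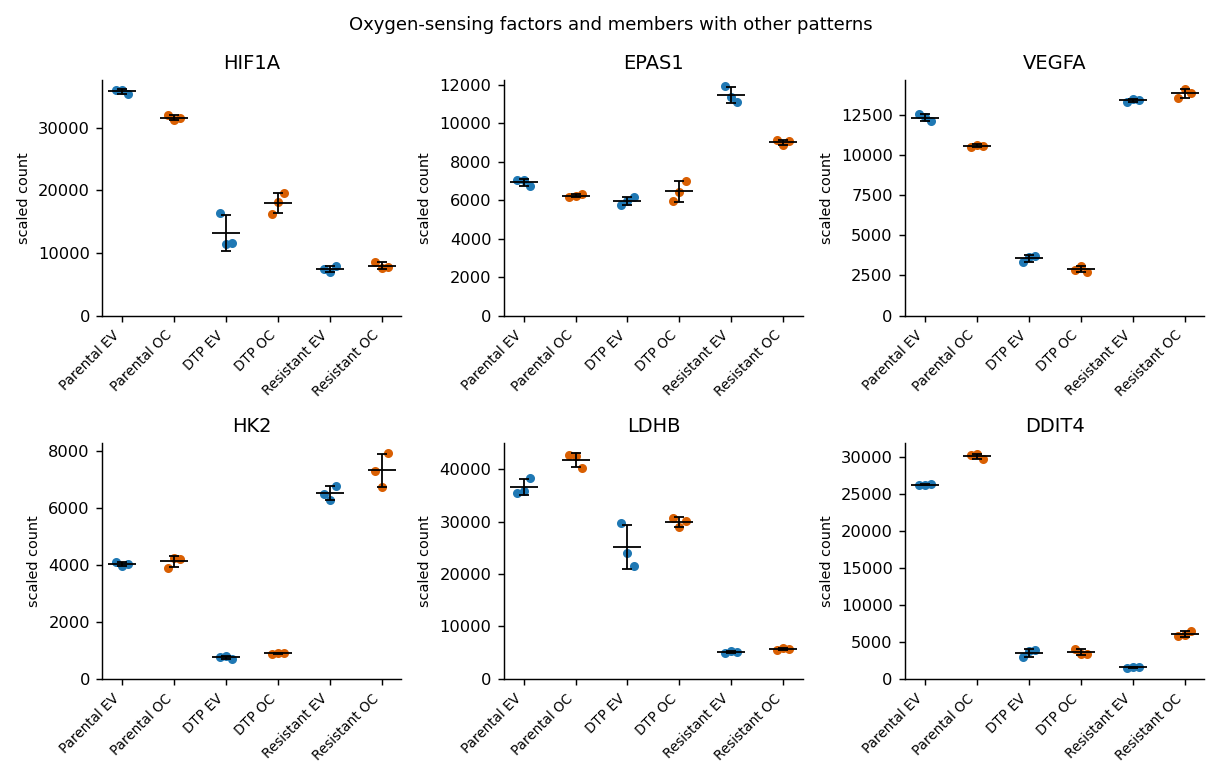
Scaled counts of HIF1A, EPAS1, VEGFA, HK2, LDHB and DDIT4 in the 6 groups (blue EV, orange OC), with 1 point per library and a bar for the mean with its SD (n = 3). HIF1A is highest in Parental and lowest in Resistant libraries, and EPAS1 is highest in Resistant EV. VEGFA and HK2 are low in DTP libraries alone, and LDHB is low in Resistant libraries alone.

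Set directly against DTP EV, Resistant EV had 22 members higher and 18 lower, with 37.5% of all genes higher and 43% lower. That is 48.9% and 40.0% of the members. HK2 was 8.61-fold higher in Resistant EV than in DTP EV, INSIG2 4.67-fold, VEGFA 3.77-fold, HK1 3.08-fold and LDHA 2.94-fold. LDHB was 4.86-fold lower, ENO2 3.22-fold, PDK1 2.51-fold, DDIT4 2.23-fold and BNIP3 2.22-fold lower. PFKFB4 (log2 0.08, SE 0.10) and ADM, the vasodilator peptide adrenomedullin (log2 0.02, SE 0.10), were not called. Without DTP EV 1 the counts were 23 higher, with PFKP gained, and 17 lower, with MXI1 lost. Among the EV groups, HIF1A and DDIT4 thus ran from Parental through DTP to Resistant in falling order, while NDRG1, HK2 and EGLN3 were lowest in DTP, each step passing the test.

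The next comparisons asked what overexpression of cATF6 did within each state, where both arms come from the same library series. In Parental cells 5 members rose and 5 fell, against 5.94% of all genes higher and 7.95% lower. None of them changed 2-fold, while 0.302% of all genes rose and 0.802% fell that far. EGLN3 rose 1.83-fold, from 1452, 1387 and 1493 in EV to 2625, 2676 and 2637 in OC (log2 0.87, SE 0.07; limma adjusted p = 7.03e-07), with no overlap. The lower glycolysis genes PGAM1 (1.43-fold, a phosphoglycerate mutase) and ENO1 (1.28-fold) rose, as did TPI1 (1.20-fold, triosephosphate isomerase). LDHA went from 64414, 65269 and 66917 to 82097, 83606 and 81571, a 1.26-fold rise (limma adjusted p = 0.0347). That call was lost under quantile normalization (adjusted p = 0.638) and without any of the 6 libraries (adjusted p = 0.0724 to 0.104).

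The 5 falls in Parental OC were of ADM (1.41-fold), ENO2 (1.27-fold), PFKFB3 (1.24-fold), KDM3A (1.23-fold, a histone demethylase induced by hypoxia) and VEGFA (1.17-fold). VEGFA had 10496, 10669 and 10600.4 in Parental OC, all under the EV values. NDRG1 had 11817, 12046 and 12091, PDK1 4016, 3958 and 3977 and HK2 3888, 4250.5 and 4220.0, and none of the 3 was called (limma adjusted p = 0.372, 0.812 and 0.83). DDIT4 had 30261, 30354 and 29761, SLC2A1 9035, 9151 and 9185 and SLC16A3 8879, 9291 and 8519, also without a call. In a fit of the 6 Parental libraries alone 17 members were higher and 13 lower. Without the 6 Resistant libraries 4 were higher and 8 lower. The shares over all genes in these fits are not given, so nothing about the members is read from these counts.

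In DTP cells 19 members were higher with OC and 2 were lower, against 9.47% and 8.79% of all genes. None of them changed 2-fold, while 1.26% of all genes rose and 0.48% fell that far. The widest rises were of ANGPTL4 (1.62-fold), PDK1 (1.48-fold), LDHA (1.47-fold), EGLN1 (1.43-fold) and HIF1A (1.38-fold). For ANGPTL4 the values were 99.0, 60.5 and 81.3 in EV and 156, 125 and 107 in OC, and its call was lost without any of 4 of the 6 libraries (limma adjusted p = 0.0519 to 0.124). PDK1 had 712, 543 and 497 in EV and 799, 855 and 919 in OC, with every OC value above every EV value. LDHA had 26860.3, 27682 and 31931, all above the EV values, and HIF1A had 16309, 18094 and 19529, with OC 1 under the highest EV library. SLC2A1 had 6108, 6055 and 6731 and rose 1.24-fold. The members that fell were PFKFB3 (1.33-fold) and VEGFA (1.24-fold), which had 2856, 3073 and 2708 in DTP OC. NDRG1 had 1302, 1261 and 1262 in DTP OC, between the EV libraries, and was not called (log2 0.31, SE 0.13; limma adjusted p = 0.104). It was called higher without DTP EV 1 (log2 0.55, adjusted p = 1.44e-07).

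These DTP calls rest on a spread pooled over all 18 libraries. In a fit of the 6 DTP libraries alone no member was called in either direction, with 18 higher and 2 lower at an unadjusted p under 0.05. Without DTP EV 1 the counts were 25 higher and 4 lower, with no call lost and PFKM, TPI1, PGK1, PDK3, SLC16A1, EGLN3, NDRG1 and ERO1L gained. For PDK1, LDHA and HIF1A the rises were then 1.65-fold, 1.64-fold and 1.56-fold. Without DTP EV 3 the counts were 10 and 2. The 9 proliferation markers were all higher and 9 of the 12 epithelial markers lower in DTP OC than in DTP EV. Among the DTP EV libraries, DTP EV 1 had the highest sum of proliferation markers and the lowest sum of epithelial markers. Their part in the members' values was not tested.

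In Resistant cells 35 members were higher with OC and 2 were lower, against 16.4% of all genes higher and 20.1% lower. The median log2 change was 0.76, against -0.02 over all genes, and 18 members rose at least 2-fold, as did 2.66% of all genes. The members' share of counts went from 1.29 ± 0.0152% in Resistant EV to 2.10 ± 0.0417% in Resistant OC (SD, n = 3). Leaving out each of the 6 libraries in turn gave 32 to 34 higher and 2 lower, and leaving out DTP EV 1, which enters the shared spread, gave 38 higher. CA9 is among the 35 although it passed the filter only through Resistant OC, which fixed its direction, and without it 34 of 44 were higher, 17 of them at least 2-fold. All 9 proliferation markers were lower in Resistant OC, opposite to their direction in DTP OC.

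Among hypoxia-responsive genes 12 of 16 rose (11 of 15 without CA9), 8 of them at least 2-fold. NDRG1 went from 2677, 2811 and 2583 in Resistant EV to 11213, 12011 and 12000.4 in Resistant OC, a 4.36-fold rise (log2 2.13, SE 0.13; limma adjusted p = 4.05e-09). All 3 OC values lay close to those of Parental OC. CA12 rose 6.20-fold to 156, 165 and 175, and ANGPTL4 rose 5.26-fold to 198, 254 and 182. CA9 had 12 raw counts in Resistant EV, all in library 3, and 180 in Resistant OC, 50, 53 and 77 per library. The 3 Parental OC libraries together had 19 raw counts and the DTP libraries had 0. P4HA1 rose 4.07-fold, from 1174, 1049 and 1061 to 4761, 4209.7 and 4387, with P4HA2 at 1.16-fold. DDIT4 rose 3.89-fold to 5806, 5917 and 6481, still under every Parental value. ERO1L rose 3.42-fold, ADM 2.82-fold, BNIP3 1.91-fold, BNIP3L 1.45-fold and KDM3A 1.33-fold. VEGFA had 13576, 14139 and 13863, a change of log2 0.05, SE 0.05 with an interval of -0.05 to 0.14 (1.96 SE on either side), and INSIG2, MXI1 (a MYC antagonist) and ANKRD37 were not called either.

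**Figure D4:**
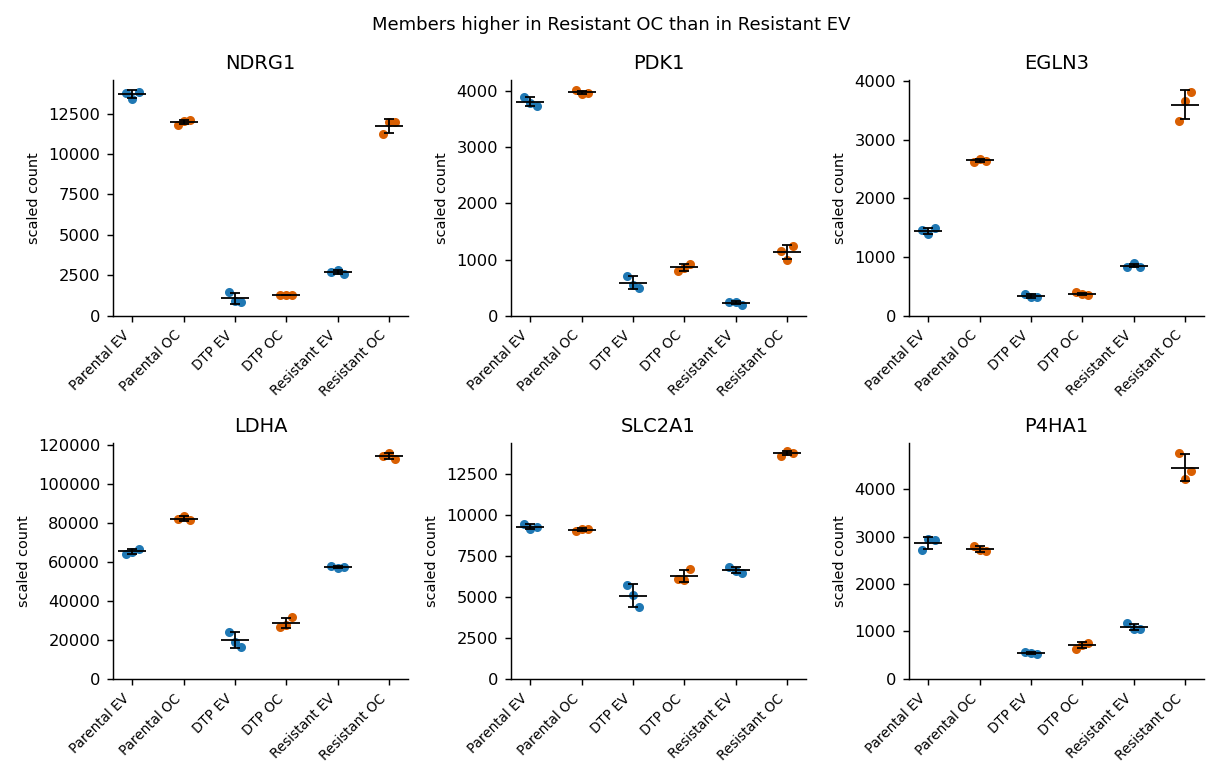
Scaled counts of NDRG1, PDK1, EGLN3, LDHA, SLC2A1 and P4HA1 in the 6 groups (blue EV, orange OC), with 1 point per library and a bar for the mean with its SD (n = 3). In all 6 panels the Resistant OC libraries lie above the Resistant EV libraries with no overlap, and the gap between them is wider than the gap between Parental EV and Parental OC.

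Along the glycolytic pathway, both transporters, 10 of 11 upper glycolysis genes and all 6 lower glycolysis genes rose in Resistant OC. SLC2A1 went from 6866, 6606 and 6465 to 13635, 13910.1 and 13824, a 2.08-fold rise (log2 1.05, SE 0.07; limma adjusted p = 1.15e-08), and reached values above those of every other group. SLC2A3, the high-affinity transporter, rose 4.84-fold from 192, 207 and 180.3 to 981, 963 and 870.0. ALDOC rose 4.29-fold to 1471, 1516 and 1761 and PFKFB4 3.17-fold to 941, 1022 and 971, whereas PFKFB3 was not called. ENO2 rose 3.47-fold, from 466, 508 and 411 to 1549, 1609 and 1633, and TPI1 rose 2.35-fold. GPI rose 1.70-fold, PFKL 1.26-fold, PFKM 1.14-fold, PFKP 1.76-fold, PGK1 1.65-fold and GAPDH 1.69-fold. The changes of HK1 (1.27-fold), PKM (1.23-fold) and ENO1 (1.18-fold) were small. HK2 had 7282, 6739 and 7907 and rose 1.12-fold (limma adjusted p = 0.0468), a call lost without the filter on low counts (adjusted p = 0.0602) and without any of 4 of the Resistant libraries (adjusted p = 0.0856 to 0.224).

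For pyruvate and lactate, PDK1 rose 4.91-fold, from 249, 249 and 194 to 1157, 996 and 1244 (log2 2.29, SE 0.12; limma adjusted p = 1.28e-09), and remained under its Parental values. LDHA rose 1.99-fold, from 58259.9, 57235 and 57575 to 114665, 116189 and 113210.4, while LDHB (log2 0.15, SE 0.08) and PDK3 (log2 0.25, SE 0.12) were not called. The exporter SLC16A3 rose 2.08-fold to 6863, 7177 and 7661, and SLC16A1, the transporter MCT1, fell 1.25-fold from 8767, 8618 and 9343 to 7992, 6377 and 7066. Among the genes of oxygen sensing EGLN3 rose 4.21-fold, from 831, 889.8 and 836 to 3324, 3652 and 3810.2 (limma adjusted p = 8.99e-12), and EGLN1 rose 1.60-fold. HIF1A had 8635, 7539 and 7716, overlapping Resistant EV, with a change of log2 0.09, SE 0.11 and an interval of -0.12 to 0.30. EPAS1 went from 11948, 11359 and 11125 to 9117, 8862 and 9051 and fell 1.27-fold (limma adjusted p = 5.15e-05).

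Whether the OC effect differed between states was tested as an interaction, a difference of 2 log2 changes. Against Parental cells, the OC effect in Resistant cells was higher for 31 members and lower for 1 (EPAS1), against 14.4% and 15.9% of all genes, and for 15 members the difference was at least 2-fold, as for 3.43% of all genes. By role, it was higher for 13 of 16 hypoxia-responsive genes, 8 of 11 upper glycolysis genes and 3 of 6 lower glycolysis genes. The difference was 2.32 (SE 0.18) for NDRG1, 2.23 for PDK1, 2.13 for ENO2, 2.09 for P4HA1 and 2.00 for ADM on the log2 scale. ENO2, ADM and KDM3A (6.67% of members, against 2.29% of all genes) had fallen with OC in Parental and risen in Resistant cells. PGAM1, ENO1 and PKM differed by 0.03, -0.12 and 0.01, without a call (limma adjusted p = 0.883, 0.49 and 0.979). For EPAS1 the difference was -0.20 (limma adjusted p = 0.0485), a call lost without the filter on low counts (adjusted p = 0.0533) and without any of 11 of the 12 libraries (adjusted p = 0.058 to 0.116).

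Against DTP cells, the OC effect in Resistant cells was higher for 28 members and lower for 2 (SLC16A1 and EPAS1), against 13.8% and 16.5% of all genes. Without DTP EV 1 these counts were 30 and 6, and CA9 is again among the 28. The difference for LDHA (0.44) lost its call without any of 2 of the 12 libraries (limma adjusted p = 0.0574 to 0.0636) and in a fit of the 4 groups alone (adjusted p = 0.0644). Between DTP and Parental cells the OC effect was higher for 6 members and lower for 1, against 5.44% and 4.49% of all genes. The 6 were HIF1A (0.65 on the log2 scale), ENO2 (0.61), P4HA1 (0.43), SLC2A1 (0.34), SLC16A1 (0.31) and EPAS1 (0.27), and the 1 was EGLN3 (-0.70). Without DTP EV 1 the counts became 18 and 3, and the call of SLC2A1 was lost without any of 9 of the 12 libraries (limma adjusted p = 0.0522 to 0.104), that of SLC16A1 without any of 11 (0.0505 to 0.0731) and that of EPAS1 without any of 5 (0.0596 to 0.0661). Of the 45 members, 3 (6.67%) rose with OC in all 3 states, namely ENO1, PGAM1 and LDHA, whose Parental call is the fragile one given above, against 0.237% of all genes. Another 4 (8.89%) were called in none (ANKRD37, INSIG2, MXI1 and PDK3), against 49.6% of all genes.

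The comparison of DTP EV with Parental EV and that of Resistant OC with Resistant EV share no library. Of the 42 members lower in the former and the 35 higher in the latter, 33 were in both lists, which is 78.6% and 94.3% of them. Since 93.3% of all members were in the former and 77.8% in the latter, lists of this size share most of their genes whatever the link, and nothing is read from the overlap. Lists of 41 and 38 shared 35 when DTP EV 1 was left out. Across the 45 members the log2 changes had a Pearson correlation of -0.48 and a Spearman correlation of -0.57, against -0.10 and -0.11 over all genes, and of -0.44 and -0.52 without DTP EV 1. CA9 is among the 45, and its direction in Resistant OC was fixed by the filter. Its change in DTP EV rests on 3 raw counts in Parental EV and 0 in DTP EV. The correlations without CA9 are not given, so the part of CA9 in them is not known. Genes are not independent replicates, so no p-value is attached. NDRG1, PDK1, DDIT4, P4HA1, PFKFB4 and EGLN3 were far from 0 on both axes. HK2, VEGFA and HIF1A fell by 2.41, 1.79 and 1.47 on the log2 scale in DTP EV, with values of 0.16, 0.05 and 0.09 in Resistant OC.

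**Figure D5:**
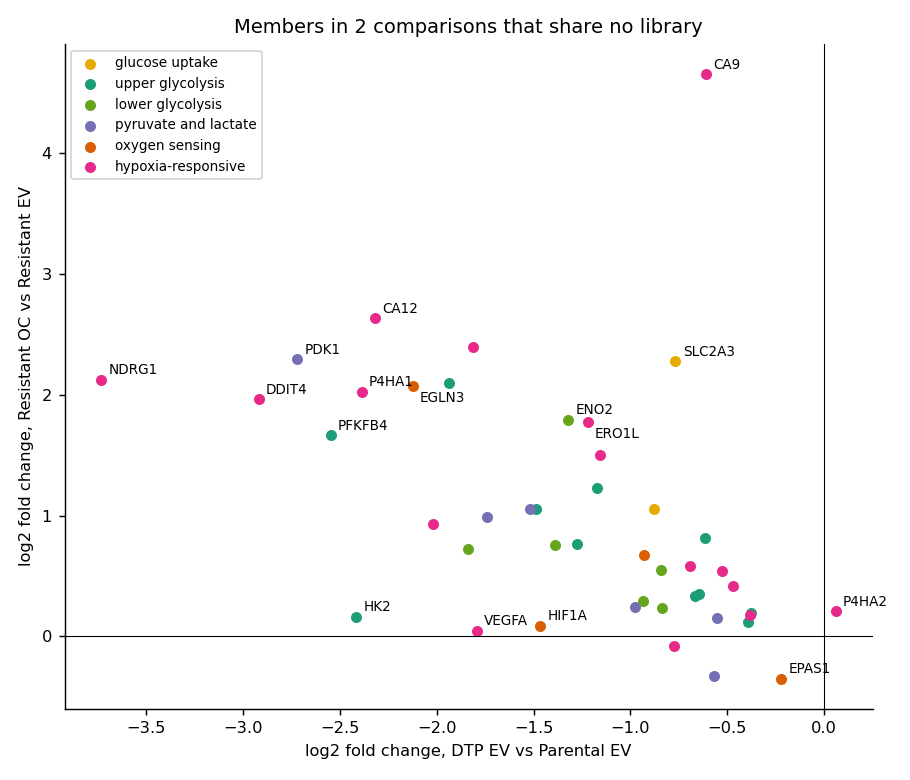
Log2 fold change of the 45 members in DTP EV against Parental EV (x axis) and in Resistant OC against Resistant EV (y axis), 1 point per gene, coloured by role. The 33 genes lower in DTP EV and higher in Resistant OC lie in the upper left quadrant, and HK2, VEGFA and HIF1A lie near 0 on the y axis. CA9 is not called on the x axis and rests on few counts outside Resistant OC.

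Balances between related enzymes are given as the log2 ratio of their scaled counts, where only the change between groups can be read because transcript lengths differ. The ratio of LDHA to LDHB was 0.84 ± 0.03 (mean ± SD, n = 3) in Parental EV, -0.34 ± 0.06 in DTP EV, 3.49 ± 0.06 in Resistant EV and 4.33 ± 0.05 in Resistant OC. It was thus lowest in DTP EV and highest in Resistant OC, and the groups do not overlap within these SDs. The ratio of HK2 to HK1 was 0.01 ± 0.07 in Parental EV, -1.76 ± 0.19 in DTP EV and -0.28 ± 0.15 in Resistant EV, lowest in DTP. That of PDK1 to PDK3 was 2.13 ± 0.09 in Parental EV, -1.64 ± 0.13 in Resistant EV and 0.41 ± 0.24 in Resistant OC. That of SLC16A3 to SLC16A1 was 0.02 ± 0.01 in Parental EV, -1.36 ± 0.15 in Resistant EV and 0.02 ± 0.21 in Resistant OC, with a mean near the Parental one. The ratio of EPAS1 to HIF1A stood at -2.37 ± 0.02 in Parental EV, -1.12 ± 0.34 in DTP EV and 0.62 ± 0.11 in Resistant EV, and it was 0.18 ± 0.09 in Resistant OC. These ratios are descriptions and were not tested.

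Further genes of the same pathways, on lists chosen by role, are described by the same calls. Of 36 other hypoxia-inducible genes, 18 were lower and 5 higher in DTP EV than in Parental EV (50.0% and 13.9%, against 28.1% and 28.7% of all genes), with a median log2 change of -0.51. At least 2-fold, 7 fell and 2 rose. STC1, a secreted glycoprotein, fell 54.1-fold and the liprin PPFIA4 fell 8.82-fold. Changes within the list ran from -5.76 to 7.21 on the log2 scale, so the widest was a rise. In Resistant EV 21 of the 36 were lower than in Parental EV and 9 were higher (58.3% and 25.0%, against 43.6% and 38.6% of all genes), and 14 fell and 7 rose at least 2-fold. With OC in Resistant cells 19 of them rose and 3 fell (52.8% and 8.33%, against 16.4% and 20.1% of all genes), 12 rising at least 2-fold, among them PPFIA4 (14.3-fold), TMEM45A (4.19-fold) and the adenylate kinase AK4 (3.36-fold). The counts were 4 higher and 2 lower with OC in Parental cells (11.1% and 5.56%, against 5.94% and 7.95% of all genes). In DTP cells they were 8 and 2 (22.2% and 5.56%, against 9.47% and 8.79% of all genes).

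Of 31 other glycolysis genes, 10 were higher and 10 lower in DTP EV, 17 higher and 9 lower in Resistant EV than in Parental EV, and 7 higher and 8 lower with OC in Resistant cells. These are 32.3% each way in DTP EV, near the shares of all genes (28.7% higher and 28.1% lower). In Resistant EV they are 54.8% and 29.0%, against 38.6% and 43.6% of all genes. In Resistant OC they are 22.6% and 25.8%, against 16.4% and 20.1% of all genes. BPGM, which makes 2,3-bisphosphoglycerate, rose 3.18-fold in DTP EV and PGM1, a phosphoglucomutase, fell 2.74-fold. FBP1, the gluconeogenic enzyme that opposes phosphofructokinase, rose 57.3-fold in Resistant EV, from 191 to 10903. With OC in Resistant cells the transporter SLC2A6 rose 2.43-fold, and PDK4 and the pyruvate carrier MPC1 fell 2.02-fold and 2.02-fold. Of 15 other oxygen-sensing regulators, 5 were higher and 5 lower in DTP EV, 8 higher and 4 lower in Resistant EV, and 4 higher and 2 lower with OC in Resistant cells. These are 33.3% each way in DTP EV, 53.3% and 26.7% in Resistant EV, and 26.7% and 13.3% in Resistant OC. The shares of all genes are those given above for the glycolysis genes. CITED2, which competes with HIF for its coactivators, rose 3.74-fold in DTP EV and 7.51-fold in Resistant EV. HIF1AN, the asparaginyl hydroxylase that blocks HIF activity, rose 2.54-fold in Resistant EV, and TCEB1, elongin C of the VHL ubiquitin ligase, fell 10.8-fold there.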

How the data were processed

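Ribosomal RNA was removed and strand-specific libraries were made, per the labels' protocols. FastQC, STAR, featureCounts, MultiQC and build hg19 are named without versions in the submitters' processing notes, and the strand setting of the counting is not given in the sources used here. The deposited gene values are on a log10 scale, log10(count + 1), and undoing the log gave whole counts in 100% of cells (tolerance 1e-06). Of 22549 lines, 2557 name no known gene and 15 symbols stand in several lines; both kinds were left out and hold 1.37% of counts. The series has 24 samples, and 12 columns of per-sample values, with the DMSO and Osi groups, were not used.

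The 18 libraries of the other 6 groups were scaled by trimmed means of M values (trims 0.3 and 0.05). The test was limma (version 3.58.1, run under R 4.3.3) on log2(scaled count + 1), for genes that reached 10 counts in 3 or more libraries (mean-variance trend, 1 fit of 6 group means, Benjamini-Hochberg over 15211 genes, adjusted p under 0.05). Because the values are a deposited log unit, no count model was used, and fold changes of low genes are understated by the pseudocount of 1. The script was tested on simulated data. Promoters came from RefSeq tables on GRCh38.p14. Genes with near-identical copies elsewhere (GAPDH, PGAM1, ENO1, LDHA, LDHB, TPI1 and others) are uncertain where counting split or dropped shared reads.

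The members and all lists were chosen with earlier results of these data known. A gene of the further lists is counted there but not reported here by name. The named members are 15 fixed ones and those among the 5 widest rises or falls of a comparison with a mean of at least 100 scaled counts in the higher group. Their values per library are given for some of the groups only. The alternatives were other scalings (median-ratio, quantile), no filter, a pseudocount of 0.1, limma without trend, voom weights, the replicate number as a block, the compared groups alone, no Resistant libraries, and each library left out.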

Additional observations from a re-analysis of the deposited data

Results flagged for a closer look

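Each value here is the difference between 2 states in the log2 effect of cATF6 overexpression (OC against EV), tested as an interaction with limma at an adjusted p under 0.05, and it stands here because the effect differed between states. They were taken from the named members, that is, the fixed ones and those with the widest rises or falls.

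Between Resistant and Parental cells the effect was higher in Resistant cells by 1.08 for SLC2A1, 2.74 for SLC2A3, 1.52 for PFKFB4, 1.95 for ALDOC and 2.13 for ENO2. Among genes of pyruvate, lactate and oxygen sensing it was higher by 0.66 for LDHA, 2.23 for PDK1, 1.01 for SLC16A3 and 1.20 for EGLN3, and for EPAS1 the difference was -0.20. Among hypoxia-responsive genes it was higher by 0.27 for VEGFA, 3.44 for CA12, 2.05 for ANGPTL4, 2.32 for NDRG1 and 1.76 for DDIT4. The call of EPAS1 was lost without any of 11 of the 12 libraries.

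Between Resistant and DTP cells the effect was higher in Resistant cells by 0.74 for SLC2A1, 1.67 for PFKFB4, 1.88 for ALDOC, 0.44 for LDHA, 1.73 for PDK1, 1.04 for SLC16A3 and 1.90 for EGLN3. It was also higher by 0.36 for VEGFA, 4.65 for CA9, 2.17 for CA12, 1.70 for ANGPTL4, 1.82 for NDRG1, 1.90 for DDIT4 and 1.98 for ERO1L, and the difference was -0.48 for SLC16A1 and -0.46 for EPAS1. The value of CA9 is no bound, because CA9 had 0 counts in all DTP libraries, and its call was fixed by Resistant OC, the group through which it passed the filter. The call of LDHA was lost without any of 2 of the 12 libraries (limma adjusted p = 0.0574 to 0.0636).

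Between DTP and Parental cells the effect was higher in DTP cells by 0.34 for SLC2A1, 0.61 for ENO2, 0.31 for SLC16A1, 0.65 for HIF1A, 0.27 for EPAS1 and 0.43 for P4HA1, and the difference was -0.70 for EGLN3. The call of SLC2A1 was lost without any of 9 of the 12 libraries, that of SLC16A1 without any of 11 and that of EPAS1 without any of 5.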

How the results depend on the processing

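For named members, 2587 of 2724 values under an alternative kept their direction and their side of the threshold, 91 lost the call, 28 gained it and 18 changed sign. Only 1 of the sign changes touched a called value: VEGFA in Resistant EV against Parental EV, at -0.22 under quantile normalization. The others were CA9 (-0.13, voom weights) and SLC16A3 (-0.0055, groups compared alone) in DTP OC against DTP EV, and leave-one-out ranges that cross or reach 0. Those were -0.92 to 0.00 for CA9 in DTP EV and -0.62 to 1.37 in Resistant EV against Parental EV, 0.00 to 1.99 for CA9 and -0.048 to 0.19 for PFKFB4 in Resistant EV against DTP EV, -0.066 to 0.14 for DDIT4, -0.13 to 0.10 for PFKFB4 and -0.071 to 0.079 for SLC16A3 in DTP OC, and -0.11 to 0.038 for SLC16A3 in the difference of the OC effect between DTP and Parental cells. Of 296 alternative counts and medians, 266 stayed within their limits. In a fit of the compared groups alone, with fewer residual degrees of freedom, 0 members were higher and 0 lower in DTP OC (limma; 18 and 2 at an unadjusted p under 0.05), 17 were higher and 13 lower in Parental OC, and the OC effect was lower in Resistant than in Parental cells for 2. Without the 6 Resistant libraries 8 were lower in Parental OC. Without the trend 3 had a higher OC effect in DTP than in Parental cells. The 1 member with a lower OC effect in Resistant than in Parental cells became 0 without the filter and without the trend (1 at an unadjusted p under 0.05 in each). The cause was not tested.

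Leaving out each library in turn gave 10 to 25 members higher and 2 to 4 lower in DTP OC. For the OC effect it gave 3 to 18 higher and 1 to 3 lower (DTP minus Parental), 27 to 30 higher and 2 to 6 lower (Resistant minus DTP) and 29 to 32 higher and 0 to 1 lower (Resistant minus Parental). In the other comparisons it moved counts by less than 1.5 times. Same-numbered libraries of EV and OC did not deviate together (correlations of -0.06 to 0.03 within the states). This does not exclude that same-numbered libraries were prepared together. With the replicate number as a block, 42 members were lower in DTP EV, 33 higher in Resistant OC and 0 had a lower OC effect in Resistant than in Parental cells (limma, 1 at an unadjusted p under 0.05), and among named members LDHA (Parental OC), HK2 (Resistant OC) and EPAS1 (Resistant minus Parental) lost their calls. CA9 is limited by depth in all groups but Resistant OC.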
